A study of Mus musculus with 7 samples.

Results

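The genes described here are 32 genes of mitosis, chosen by name from the table of 50435 gene rows that the authors deposited. All 32 were found, each once. They encode the kinases and cyclins that start mitosis, the proteins of the centromere and kinetochore, the spindle checkpoint, the chromosomal passenger complex, the motors of the spindle and midzone, and partners of the anaphase-promoting complex. RNA was measured in mouse marrow cells negative for the blood markers CD45, Ter119, Gr1 and CD11b, positive for CD31 and negative for Sca1, a sort meant to take sinusoidal endothelial cells. Wild-type recipients in both groups had been irradiated and given Zbtb46dtr marrow, so that the receptor for diphtheria toxin sat in donor-derived blood cells that use Zbtb46, a gene that marks classical dendritic cells and is also known from erythroid precursors. After 8 weeks, 200 ng of diphtheria toxin (DT) in 100 µL of PBS, or that volume of PBS alone, was injected intraperitoneally, and marrow was harvested 1 day later. There were 4 PBS and 3 DT samples, which the labels call biological replicates. The strain, the age and any pooling of mice are not known here, and p-values measure the spread between these samples.

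Mitosis is the step in which duplicated chromosomes are condensed, attached to the spindle and pulled apart. Cdk1 bound to cyclin B drives entry, the spindle checkpoint holds the cell until every kinetochore is attached, and the anaphase-promoting complex with Cdc20 then marks cyclin B and securin for destruction. Most of these genes are transcribed late in the cell cycle by a shared programme, in which B-Myb, FoxM1 and the MuvB proteins act at the cell cycle genes homology region (CHR) and NF-Y acts at CCAAT boxes. In marrow, dividing cells are mainly precursors of red cells, neutrophils and B cells, whereas endothelium divides little at rest. In RNA from whole samples, fewer cells of a type and less RNA per cell cannot be told apart.

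The unit is RPM, the reads of a gene per 1000000 sequenced. The libraries held an estimated 33200000 to 51200000 reads. The lowest value of any mitosis gene, Foxm1 in PBS replicate 3, was 15.5 RPM or about 587 reads, so counting error was small beside the spread between samples. The defining markers of endothelium were near the floor of the table. A list of 12 endothelial genes, among them Cdh5, Esam, Stab2 and Emcn, had sums of 1.45 to 9.35 RPM under PBS, against 10.2 to 18.7 RPM after DT, and Emcn was at the floor of the table in 5 of 7 libraries. By contrast, 14 neutrophil genes had sums of 1713 to 3250 RPM under PBS, against 57940 to 60660 RPM after DT, and 13 B-lineage genes had sums of 5845 to 8834 and 3665 to 4136 RPM. PBS replicate 1 stood apart from the other PBS libraries. Its 19 erythroid genes summed to 1184 RPM, where the other PBS libraries had 11980, 8191 and 7331 RPM and DT had 2482, 3216 and 2837 RPM. These 19 genes did not move as one. In the test described below 11 were lower in DT, 4 were higher and 4 did not pass, against 18.6% lower and 13.4% higher of all genes. The results that rest on PBS replicate 1 are given with and without it.

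Most mitosis genes did not pass the test for a difference between DT and PBS, whereas 32% of all genes tested passed the threshold. Of the 32 genes, 2 fell, 0 rose and 30 did not pass (limma on log2(RPM + 1), Benjamini-Hochberg adjusted p under 0.05 over 14100 genes). Across all genes tested, 18.6% were lower in DT and 13.4% higher, and under median-ratio scaling 9.37% and 16.8%, or 26.1% in all. The 2 that fell were Cenpa, the histone variant that marks centromeres, and Cdc20, the activator of the anaphase-promoting complex. At an unadjusted p under 0.05, 4 of the 32 were lower and 0 higher, against 27.6% and 16.5% of all genes. With limma-voom on estimated reads 2 were lower and 0 higher, against 16.4% and 13% of all genes. The median log2 change was -0.097 for the mitosis genes and -0.23 for all genes tested. In size alone, the median change was 0.21 for the mitosis genes and 0.52 for all genes. Every one of the 32 estimates lay within 1 log2 unit of 0, as did 79.0% of all genes. The 95% interval lay wholly within that range for 25 of the 32, against 38.6% of all genes. The other 7 intervals reached beyond it. These comparisons were not matched for level: the mitosis genes averaged 25.9 to 474 RPM, whereas all genes tested included means down to 1 RPM.

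**Figure D1:**
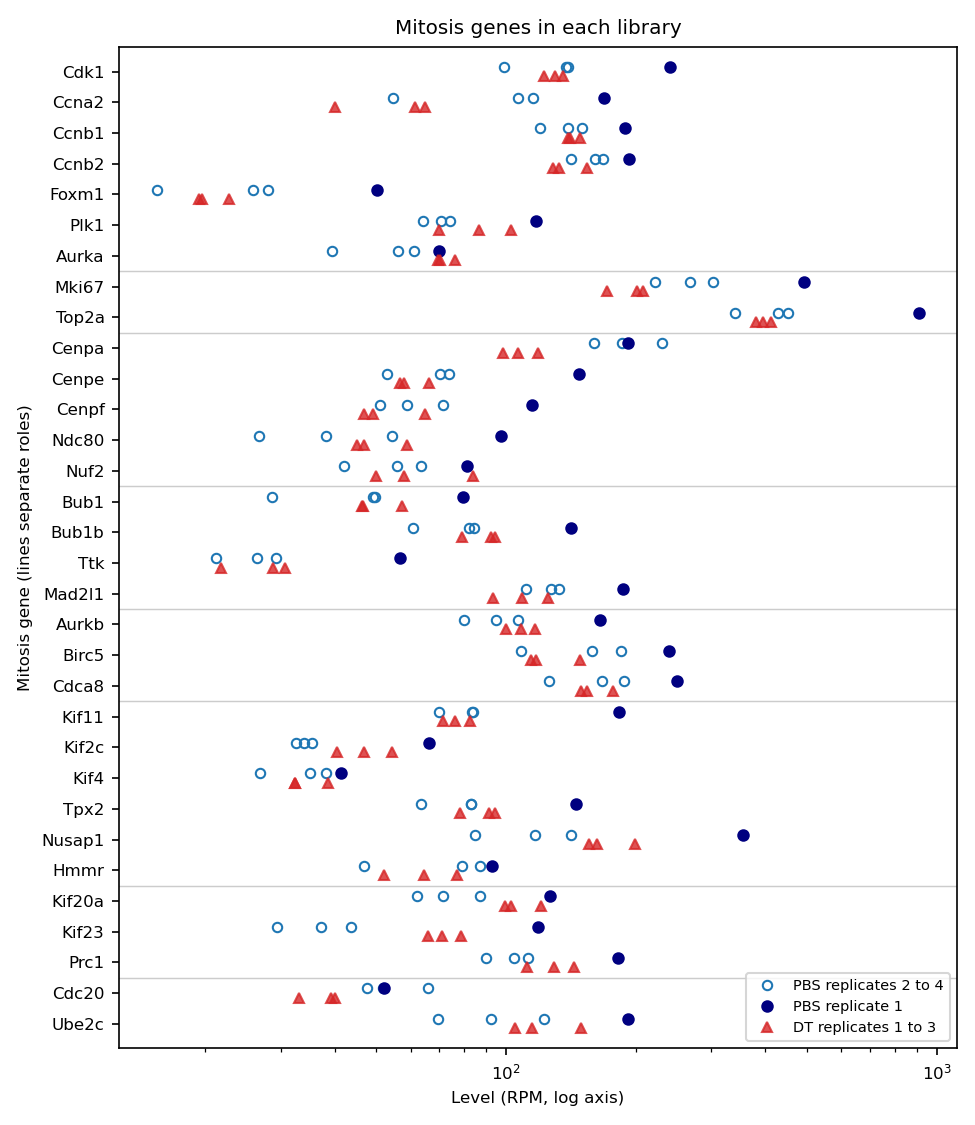
Level of each of the 32 mitosis genes in each of the 7 libraries, in RPM on a log axis, with PBS above DT in each row and lines between roles. PBS replicate 1 (filled circles) holds the highest value of 28 genes. Only Mki67, Cenpa and Cdc20 have every DT library below every PBS library, as 24.7% of all genes tested do.

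The mitosis genes varied widely within PBS. PBS replicate 1 held the highest of the 7 values in 28 of 32 mitosis genes and the highest PBS value in 30, where 16.0% and 25.1% of all genes did so. The exceptions within PBS were Cenpa and Cdc20, both highest in PBS replicate 2. PBS replicate 3 was the lowest PBS library in 27 of 32 genes, against 20.8% of all genes. Summed over the 32 genes, PBS replicates 1 to 4 held 5738, 3526, 2632 and 3383 RPM, and DT replicates 1 to 3 held 3387, 3148 and 3043 RPM. All DT sums thus lay inside the PBS range, close to PBS replicates 2 and 4. Single genes did the same: in 23 of 32 every DT value lay between the lowest and the highest PBS value, as in 22.0% of all genes. The ratio of PBS replicate 1 to the mean of the other PBS libraries had a median of 1.85 over the mitosis genes, from 0.945 for Cdc20 to 3.23 for Kif23, and of 0.923 over all genes. It was at least 1.5 in 25 of 32 mitosis genes and in 13.7% of all genes.

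**Figure D2:**
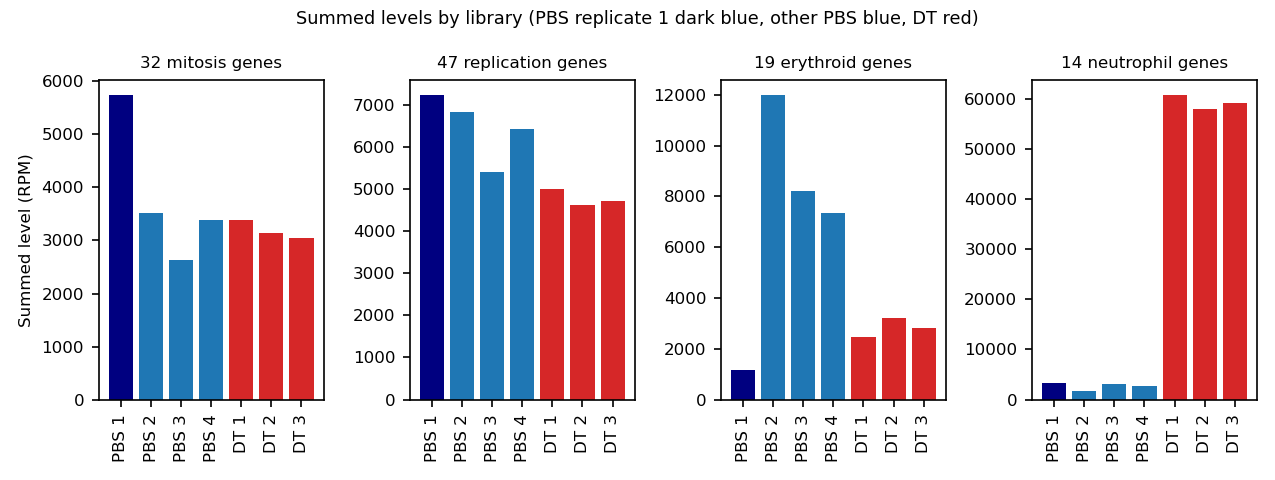
Summed level in RPM, per library, of the 32 mitosis genes, 47 DNA replication genes, 19 erythroid genes and 14 neutrophil genes, each panel on its own axis from 0. PBS replicate 1 has the highest mitosis sum (5738 RPM) and the lowest erythroid sum (1184 RPM), and DT lies apart from PBS in the replication and neutrophil panels.

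The DT libraries were alike. The coefficient of variation (SD as a percent of the mean) had a median of 37.3% over the 32 genes in PBS and 10.3% in DT, and was lower in DT for 31 of 32. For all genes the medians were 27.6% and 16.6%. Among PBS replicates 2 to 4 alone, the median was 17.3% for the mitosis genes and 22.4% for all genes. The sum of 8 neutrophil precursor genes was also high in PBS replicate 1, at 1693 RPM against 490, 828 and 579 RPM in replicates 2 to 4, and reached 7366 to 8119 RPM in DT. PBS replicate 1 was the highest PBS library in 5 of these 8 genes. It also had the highest PBS sum of the neutrophil, monocyte and macrophage, T and natural killer, and plasma cell lists. It did not for the B-lineage, erythroid, megakaryocyte and endothelial lists. The 13 B-lineage genes were at 8259 RPM in PBS replicate 1 and 5845 to 8834 RPM in the others. The part of any of these cell types in the mitosis signal was not tested.

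Levels between genes were compared per kilobase of the longest annotated coding transcript. By that measure Cenpa and Cdca8 were the most abundant at 106 RPM per kilobase each, over all 7 libraries, followed by Ccnb2 at 101 and Top2a at 90.8. Foxm1 was the lowest at 5.56, next to Cenpf at 5.86 and Kif4 at 7.01. Isoforms shorter than the longest transcript would raise these values, by amounts that can differ between genes, so the order of the genes is uncertain.

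Cenpa was the clearest difference. In mm10 with GENCODE vM21 annotation, the gene spans bases 30666777 to 30674830 of chromosome 5. In PBS replicates 1 to 4 it was at 192, 230, 160 and 186 RPM, and in DT replicates 1 to 3 at 107, 119 and 98.3 RPM. Each DT library was below each PBS library, and PBS replicate 1 was an ordinary PBS library for this gene. The mean went from 192 ± 28.9 RPM (SD, n = 4) to 108 ± 10.2 RPM (SD, n = 3), a log2 change of -0.82 ± 0.15 (SE; limma, adjusted p = 0.00338). It passed the threshold under all 17 alternative settings, with log2 changes from -0.90 to -0.55 and adjusted p from 0.000899 to 0.0240.

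Cdc20, which spans bases 118432901 to 118437352 of chromosome 4, was at 52.0, 65.8, 47.6 and 51.7 RPM in PBS replicates 1 to 4 and 33.1, 39.2 and 40.05 RPM after DT. Here too the groups did not overlap, as in 24.7% of all genes with DT lower, 16.1% with DT higher and 40.9% in either direction. The log2 change was -0.52 ± 0.17 (SE; limma, adjusted p = 0.0395). This call was fragile: it held in 6 of 17 alternative settings and was lost in 11, among them median-ratio scaling (adjusted p = 0.225) and leaving out DT replicate 1 (0.146), over a range of 0.0249 to 0.241. Ube2c, the enzyme that loads ubiquitin for the same complex, was at 192, 123, 69.6 and 92.5 RPM in PBS replicates 1 to 4 and 105, 115 and 149 RPM after DT. The groups overlapped, with a log2 change of 0.13 and a 95% interval from -0.54 to 0.80.

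To show what these genes share outside the measured values, promoters were read for the 27 of 32 genes with an entry in RefSeq's table (GRCm38.p6, the assembly of mm10), 28 windows of 300 bases from 250 before to 50 after the start. The CHR was searched as TTTGAA or TTCGAA and the CCAAT box as CCAAT, both on either strand. A CHR was present in 22 of 28 windows (78.6%), against 19.2% of all 32851 windows. A CCAAT box was present in 22 (78.6%) against 37.4%, and both were present in 20 (71.4%) against 7.52%. In 1 window matches of both motifs overlapped. The starts are RefSeq's and can differ from the GENCODE spans. On the minus strand of chromosome 4, the Kif2c window ended at base 117179022, whereas the gene's span reached 117182639. For Cdca8 these were 124937167 and 124939311. Each of these windows held a CHR match that is counted here. Cenpa and Cdc20, which fell, each had 1 CHR and 2 CCAAT boxes, and so did genes that did not pass, such as Aurka and Cenpf. Birc5, Mad2l1, Nuf2 and Nusap1 had neither in this window. Shown here are 180 bases of 4 promoters, from 150 before to 30 after the start, 5′ to 3′ on the gene's strand (minus in all 4), with matches of either motif in capitals. Cdc20 (chr4:118437314-118437493) fell, Top2a (chr11:99024160-99024339) had the highest mean RPM, and Ccnb2 (chr9:70421525-70421704) and Kif23 (chr9:61946770-61946949) had estimates on opposite sides of 0.
Cdc20: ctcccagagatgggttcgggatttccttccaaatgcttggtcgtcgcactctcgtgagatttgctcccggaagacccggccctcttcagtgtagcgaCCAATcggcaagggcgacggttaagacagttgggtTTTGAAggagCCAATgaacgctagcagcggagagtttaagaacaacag
Top2a: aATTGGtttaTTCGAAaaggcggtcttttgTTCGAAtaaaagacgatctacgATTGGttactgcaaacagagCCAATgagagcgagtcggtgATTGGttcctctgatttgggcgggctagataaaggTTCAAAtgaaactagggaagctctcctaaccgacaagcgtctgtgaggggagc
Ccnb2: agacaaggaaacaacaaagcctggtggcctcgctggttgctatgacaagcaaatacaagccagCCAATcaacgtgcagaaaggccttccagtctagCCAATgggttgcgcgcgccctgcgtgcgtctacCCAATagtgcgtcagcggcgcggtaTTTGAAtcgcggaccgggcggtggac
Kif23: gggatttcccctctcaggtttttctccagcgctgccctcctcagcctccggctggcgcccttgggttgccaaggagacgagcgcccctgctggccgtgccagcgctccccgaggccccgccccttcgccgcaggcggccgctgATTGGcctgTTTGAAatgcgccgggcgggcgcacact
The printed stretch held 1 CHR and 2 CCAAT boxes in Cdc20, 3 and 4 in Top2a, 1 and 3 in Ccnb2, and 1 and 1 in Kif23. A match is a description of the letters, and binding was not measured.

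Among the genes that start mitosis, 0 of 7 passed. Cdk1, the mitotic kinase, was at 241, 138, 98.9 and 139 RPM in PBS replicates 1 to 4 and 136, 123 and 130 RPM after DT, with a log2 change of -0.17 (95% interval -0.74 to 0.39). Its partner Ccnb1, cyclin B1, was at 189, 150, 120 and 139 RPM in PBS replicates 1 to 4 and 141, 139 and 148 RPM after DT, a change of -0.047 with an interval from -0.41 to 0.32. That interval was among the narrowest of the 32, and the DT values sat in the middle of the PBS values. Ccnb2, cyclin B2, had a log2 change of -0.25 with an interval from -0.58 to 0.069. Ccna2, cyclin A2, which acts in S phase and at entry, had the largest estimate of all: it was at 169, 116, 54.6 and 106 RPM in PBS replicates 1 to 4 and 61.5, 64.8 and 39.999 RPM after DT. PBS replicate 3 lay among the DT values, and the log2 change of -0.92 ± 0.33 (SE) missed the threshold (limma, adjusted p = 0.0606, 0.00836 to 0.280 over the alternatives). Foxm1, a transcription factor of the mitotic programme, was at 50.2, 27.9, 15.5 and 25.9 RPM in PBS replicates 1 to 4 and 19.6, 22.7 and 19.3 RPM after DT.

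Both kinases of this group that act at the centrosome and kinetochore had estimates above 0. Aurka, Aurora A, was at 70.0, 61.0, 39.4 and 56.2 RPM in PBS replicates 1 to 4 and 70.1, 76.0 and 69.6 RPM after DT, a log2 change of 0.37 with an interval from -0.070 to 0.81 (limma, adjusted p = 0.176). Plk1, Polo-like kinase, was at 117, 74.2, 64.0 and 70.7 RPM in PBS replicates 1 to 4 and 86.6, 103 and 69.8 RPM after DT. The groups overlapped for each of them.

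Mki67 and Top2a are widely used to mark dividing cells. Mki67, which coats mitotic chromosomes, was at 493, 302, 222 and 267 RPM in PBS replicates 1 to 4 and 201, 208 and 172 RPM after DT. All DT values were below all PBS values, but PBS itself spanned a wide range, and the log2 change of -0.66 ± 0.24 (SE) missed the threshold (limma, adjusted p = 0.0600). Without PBS replicate 1 it passed, with a smaller change of -0.44 (adjusted p = 0.0397), and over all alternatives the adjusted p ran from 0.0317 to 0.375. Top2a, which untangles DNA before separation, was at 910, 452, 340 and 427 RPM in PBS replicates 1 to 4 and 413, 381 and 395 RPM after DT. Apart from PBS replicate 1 the groups coincided, and the log2 change went from -0.32 (interval -0.95 to 0.31) to -0.026 without that library.

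At the centromere and kinetochore 1 of 5 genes passed, Cenpa as given above. Cenpe, a kinetochore motor, and Cenpf, a kinetochore protein of late cell cycle, had the same log2 change of -0.40, with intervals from -1.06 to 0.25 and from -0.99 to 0.18. Both moved towards 0 without PBS replicate 1, to -0.11 and -0.17. Ndc80 and Nuf2, which form the microtubule-binding arm of the kinetochore, had 95% intervals from -0.76 to 0.85 and from -0.47 to 0.63. Ndc80 was at 97.3, 38.1, 26.7 and 54.4 RPM in PBS replicates 1 to 4 and 46.8, 45.1 and 58.8 RPM after DT.

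Other genes of this structure, from a list of 30 tested, fell in 8 cases (26.7%, against 18.6% of all genes) and rose in 0, with a median log2 change of -0.36. The 8 were Cenph, Cenpk, Cenpm, Cenpn, Cenpq, Cenpw, Pmf1 and Knl1, while other CENP genes such as Cenpi, Cenpl, Cenpt and Cenpu did not pass. Cenpk was at 42.1, 48.9, 41.1 and 41.7 RPM in PBS replicates 1 to 4 and 23.5, 22.7 and 16.2 RPM after DT (limma, log2 change -1.04, adjusted p = 0.00261). In each library of DT it was below each library of PBS. Knl1, a scaffold for the checkpoint kinases, fell from 106 ± 18.7 to 57.7 ± 12.1 RPM and Pmf1, of the Mis12 complex, from 168 ± 22.9 to 112 ± 4.87 RPM (SD, n = 4 and 3). The count of 8 was 2 under median-ratio scaling (6.67%, against 9.37% of all genes). It was 2 without DT replicate 3 and 8 without PBS replicate 1.

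The checkpoint genes Bub1, Bub1b, Ttk and Mad2l1 did not pass, 0 of 4. Bub1b, which inhibits Cdc20, was at 142, 84.3, 60.9 and 82.1 RPM in PBS replicates 1 to 4 and 94.2, 78.9 and 92.1 RPM after DT, with a change of 0.0034 and an interval from -0.55 to 0.56. Bub1, its partner kinase, had an interval from -0.60 to 0.68. Ttk, the kinase that starts checkpoint signalling, had one from -0.89 to 0.48, and Mad2l1, the other inhibitor of Cdc20, from -0.76 to 0.093. In a further list of 10 checkpoint genes 2 fell, Zwilch and Tpr, and 0 rose, where 18.6% of all genes fell. Zwilch, part of a complex that recruits dynein, fell from 25.3 ± 5.27 to 12.97 ± 5.02 RPM and Tpr, a nuclear pore protein, from 206 ± 20.49 to 117 ± 4.14 RPM. The count was 1 under median-ratio scaling and 1 to 2 with single libraries left out, with 1 without any of PBS replicates 2 to 4 or DT replicate 3.

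The passenger complex, which corrects faulty attachments and later moves to the midzone, was represented by Aurkb, Birc5 and Cdca8, and 0 of 3 passed. Aurkb, its kinase, was at 165, 107, 79.95 and 94.8 RPM in PBS replicates 1 to 4 and 100.1, 117 and 108 RPM after DT. The log2 change was 0.0085 with an interval from -0.49 to 0.51. Birc5, survivin, was at 239, 185, 108 and 158 RPM in PBS replicates 1 to 4 and 149, 114 and 118 RPM after DT, a change of -0.40 that passed only without PBS replicate 3 (adjusted p = 0.0496). Cdca8, borealin, was at 249, 188, 126 and 167 RPM in PBS replicates 1 to 4 and 177, 149 and 154 RPM after DT. All 3 had DT values inside the PBS range.

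Of the 6 spindle motors and assembly factors 0 passed. Nusap1, which bundles microtubules at chromosomes, was at 355, 117, 84.7 and 142 RPM in PBS replicates 1 to 4 and 199.5, 163 and 155 RPM after DT. PBS replicate 1 lay above all DT libraries and the other PBS libraries below them. The log2 change was 0.20 ± 0.39 (SE) with all libraries and 0.61 without PBS replicate 1 (limma, adjusted p = 0.732 and 0.0293). Kif2c, a microtubule depolymerase, had the same arrangement, at 66.2, 33.9, 35.5 and 32.6 RPM in PBS replicates 1 to 4 and 54.4, 46.8 and 40.4 RPM after DT. Its change without PBS replicate 1 was 0.45 (adjusted p = 0.0510). Kif11, the motor that separates spindle poles, was at 183, 83.6, 69.95 and 83.9 RPM in PBS replicates 1 to 4 and 82.5, 76.2 and 71.4 RPM after DT, so the DT libraries matched PBS replicates 2 to 4. Tpx2, an activator of Aurora A, Hmmr, a spindle protein, and Kif4, a chromosome-bound motor, had log2 changes of -0.028, -0.21 and -0.025.

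Of the 3 midzone and cytokinesis genes 0 passed with all libraries, and their median log2 change was 0.35. Kif23, a motor of the centralspindlin complex, was at 119, 29.3, 37.1 and 43.7 RPM in PBS replicates 1 to 4 and 78.7, 66.0 and 71.0 RPM after DT. All DT libraries exceeded PBS replicates 2 to 4 and none reached PBS replicate 1. The log2 change was 0.54 with an interval from -0.33 to 1.42 (limma, adjusted p = 0.313). Without PBS replicate 1 it was 0.97 (adjusted p = 0.00222). Kif20a, which carries the passenger complex to the midzone, was at 127, 71.5, 62.2 and 87.2 RPM in PBS replicates 1 to 4 and 121, 103 and 99.5 RPM after DT, with a change of 0.35, or 0.55 without PBS replicate 1 (adjusted p = 0.256 and 0.0209). Prc1, the midzone bundler, was at 181, 89.8, 104 and 112 RPM in PBS replicates 1 to 4 and 144, 129 and 112 RPM after DT, a change of 0.12. In a further list of 13 cytokinesis genes 2 rose (15.4%, against 13.4% of all genes) and 0 fell: Arhgef39 from 20.6 ± 9.01 to 42.8 ± 12.7 RPM and Rhoa, the GTPase of the contractile ring, which has many other roles, from 306 ± 51.6 to 435 ± 69.7 RPM (SD, n = 4 and 3). That count was 4 without PBS replicate 1 and 0 without PBS replicate 2 or 4, without any single DT library, or without a filter.

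**Figure D3:**
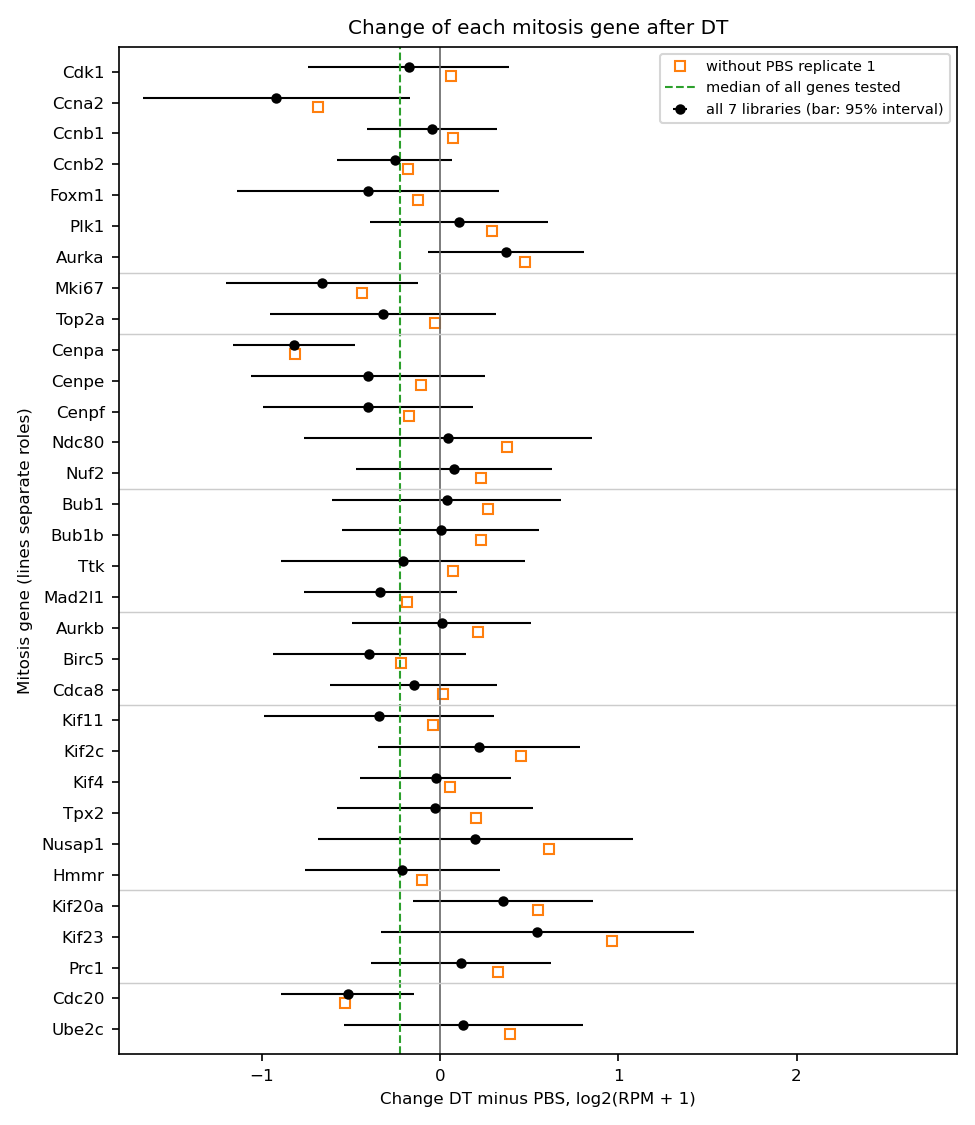
Change of each mitosis gene from PBS to DT on the log2(RPM + 1) scale: black points and 95% intervals from all 7 libraries, open squares without PBS replicate 1, and a dashed line at the median of all genes (-0.23). Leaving out that library shifts nearly all genes to the right, whereas Cenpa and Cdc20 hardly move.

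Without PBS replicate 1 the tally became 3 higher (Nusap1, Kif20a and Kif23) and 3 lower (Mki67, Cenpa and Cdc20) of 32, where 14.9% of all 14123 genes tested were higher and 25.7% lower, 40.6% in all. The estimate was above 0 for 19 of 32 genes in place of 13, and the median was 0.068 in place of -0.097. Every DT library exceeded PBS replicates 2 to 4 in 5 genes (Aurka, Kif2c, Nusap1, Kif20a and Kif23), as in 18.2% of all genes, and lay below them in 3 (Mki67, Cenpa and Cdc20), as in 34.9%. Scaling mattered as well. Median-ratio scaling moved the median of all genes from -0.23 to -0.023 and that of the mitosis genes to 0.13, with 1 gene lower (Cenpa) and 0 higher. With that scaling and without PBS replicate 1, a combination chosen after seeing the data, 11 genes were higher and 1 lower, against 19.3% and 13.9% of all genes, 33.1% in all. Over the 17 settings and the reported fit, 24 of 32 genes had estimates on both sides of 0. Ccna2, Mki67, Cenpa and Cdc20 were below 0 in every one, and Aurka, Kif2c, Kif20a and Kif23 above.

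A measure that does not depend on scaling is the share of each gene in the sum of the 32. The groups did not overlap in 5 genes whose share was higher in DT (Aurka, Bub1, Bub1b, Kif20a and Kif23) and 3 whose share was lower (Ccna2, Mki67 and Cenpe). For all genes, taken over the same sum, 16.2% were higher and 6.19% lower without overlap, so counts of 5 and 3 of 32 were near those shares. Some gaps were narrow: Bub1b had 2.47% as its highest PBS share and 2.51% as its lowest DT share, and Bub1 had 1.45% and 1.47%. Cenpe had 2.01% as its lowest PBS share and 1.96% as its highest DT share. Mki67 made up 8.59%, 8.57%, 8.43% and 7.89% of the sum in PBS and 5.95%, 6.62% and 5.64% in DT, so it was steady within PBS, including replicate 1, and lower in DT. Ccna2 made up 2.94%, 3.28%, 2.07% and 3.15% in PBS and 1.82%, 2.06% and 1.32% in DT. Kif20a made up 2.21%, 2.03%, 2.36% and 2.58% in PBS and 3.57%, 3.26% and 3.27% in DT. The share of Aurka was 1.53% ± 0.227 in PBS and 2.26% ± 0.175 in DT (SD, n = 4 and 3). Cenpa overlapped on this measure: its share in PBS replicate 1 was 3.34%, beside 6.53%, 6.09% and 5.50% in the other PBS libraries and 3.15% to 3.77% in DT.

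**Figure D4:**
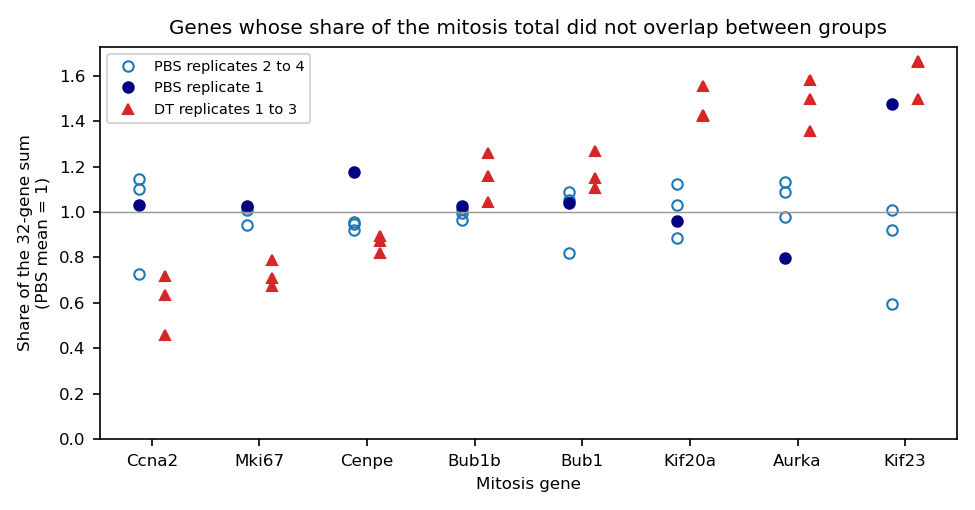
Share of the 32-gene sum held by the 8 mitosis genes whose shares did not overlap between groups, each divided by its PBS mean, with 1 point per library and the axis from 0. Ccna2, Mki67 and Cenpe are lower in DT, and Bub1b, Bub1, Kif20a, Aurka and Kif23 are higher. Over the same sum, 6.19% of all genes are lower and 16.2% higher without overlap.

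Other parts of the cell cycle machinery were compared in the same fit. Over the 8 further lists of mitosis genes, 140 were tested, of which 27 fell, 2 rose and 111 did not pass, with a median log2 change of -0.31. The share that fell, 19.3%, was near that of all genes, 18.6%, and under median-ratio scaling it was 5% against 9.37%. The list counts that follow are read against the same shares. Of 18 cohesin and separase genes 6 fell, among them Smc3, a ring subunit, from 190 ± 20.0 to 108 ± 7.10 RPM and Nipbl, the cohesin loader, from 197 ± 23.1 to 119 ± 11.7 RPM. Both also act in gene regulation outside mitosis. Of 17 anaphase-promoting complex genes 4 fell, with Cdc27 going from 44.5 ± 5.74 to 24.1 ± 7.81 RPM and the second activator Fzr1 from 33.8 ± 5.30 to 20.0 ± 3.78 RPM (SD, n = 4 and 3). Of 8 condensin genes 1 fell, Smc2, and of 24 spindle genes 2 fell, Kif2a and Numa1. Of 23 kinases, phosphatases and cyclins of entry and exit 4 fell. They included Ppp1cc, a phosphatase subunit, from 119 ± 20.4 to 47.1 ± 6.25 RPM, Wee1, which restrains Cdk1, from 25.6 ± 6.59 to 10.7 ± 5.88 RPM, and Cks2, a Cdk1 subunit, from 151 ± 27.3 to 89.2 ± 5.84 RPM. Under median-ratio scaling the falls were 2 for cohesin, 0 for the anaphase-promoting complex, 0 for condensin, 1 for spindle genes and 1 for entry and exit. With single libraries left out they ran from 3 to 8, 0 to 6, 0 to 3, 0 to 4 and 2 to 5 in that order, and were lowest without DT replicate 3. The condensin count was as low without DT replicate 1 or 2.

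Of 23 MuvB, Myb and E2f genes, regulators of the mitotic programme, 5 fell (21.7%, near the 18.6% of all genes) and 0 rose. They included Mybl2, which encodes B-Myb, from 30.04 ± 3.60 to 18.2 ± 3.47 RPM, E2f4 from 110 ± 44.3 to 49.3 ± 4.79 RPM and Tfdp2, an E2f partner, from 62.6 ± 7.16 to 21.5 ± 6.28 RPM (limma, adjusted p = 0.0225, 0.0163 and 0.000729). E2f4 and Tfdp2 are also known from erythroid precursors. In PBS replicate 1, where the erythroid sum was lowest, E2f4 was at 63.8 RPM, beside 126 RPM on average in the other PBS libraries, and Tfdp2 was at 56.1 RPM, beside 64.7 RPM. The part of erythroid cells in these changes was not tested. Of 10 G1 genes 4 fell, including Ccne1 and Cdk4. Of 15 cell cycle inhibitors 4 fell and 3 rose. Cdkn2d, an inhibitor of Cdk4 and Cdk6, was at 261, 101, 107 and 121 RPM in PBS replicates 1 to 4 and 305, 286 and 265 RPM after DT, so that PBS replicate 1 lay next to the DT libraries. Cdkn1b and Cdkn2c, inhibitors of cyclin-dependent kinases, fell, the first from 90.8 ± 15.6 to 54.6 ± 13.9 RPM and the second from 21.2 ± 7.38 to 8.88 ± 2.78 RPM. These counts were 2, 2, 1 and 4 under median-ratio scaling, in the order of falls in the first, second and last list and rises in the last. With single libraries left out they ran from 1 to 5, 2 to 6, 0 to 6 and 0 to 3, again lowest without DT replicate 3. The lowest count of G1 falls was the same without DT replicate 1 or 2. That of inhibitor rises was the same without DT replicate 2 or PBS replicate 3.

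The DNA replication genes, which act earlier in the cell cycle, were compared as well. Of 47 tested 22 fell (46.8%, against 18.6% of all genes) and 0 rose, with a median log2 change of -0.52, beside 2 falls and a median of -0.097 in the 32 mitosis genes. Their sum was 7229, 6824, 5416 and 6437 RPM in PBS replicates 1 to 4 and 4993, 4622 and 4717 RPM after DT. The groups did not overlap, unlike the sum of the 32 mitosis genes. The sum over the 8 further lists of mitosis genes did not overlap either, at 8843 to 13210 RPM in PBS and 7868 to 8703 RPM in DT. PBS replicate 1 exceeded the mean of the other PBS libraries 1.16-fold for replication, 1.80-fold for the 32 mitosis genes and 1.35-fold for the 8 further lists. The count of 22 was 8 under median-ratio scaling (17%, against 9.37% of all genes) and 9 to 23 with single libraries left out. The difference between these lists was not tested.

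**Figure D5:**
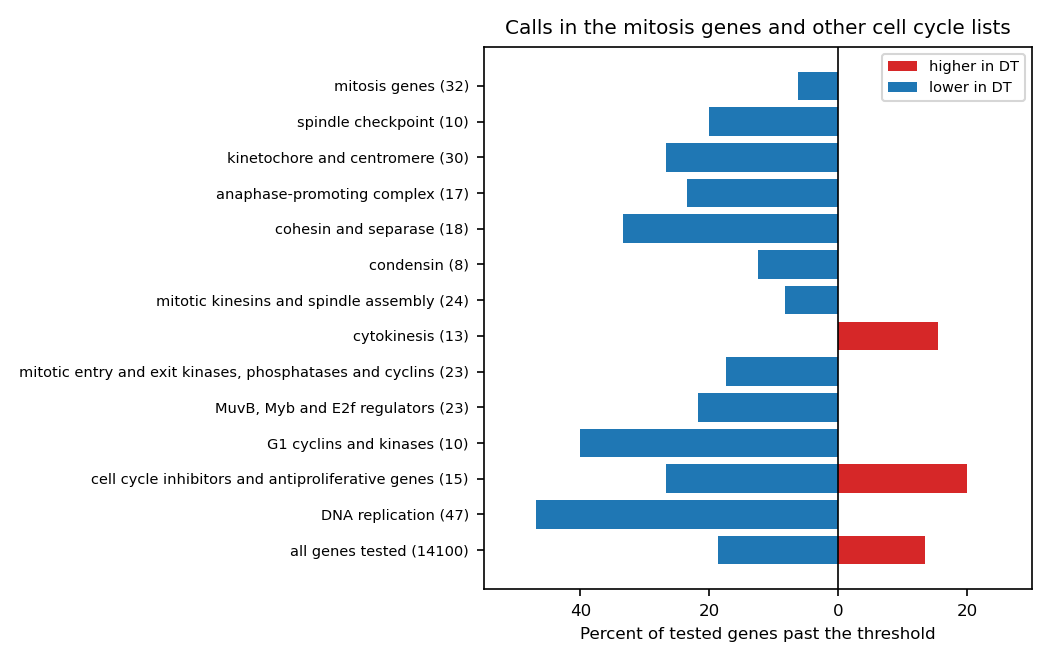
Percent of tested genes past the threshold in the 32 mitosis genes, 12 other cell cycle lists and all genes, with falls in DT to the left of 0 and rises to the right, and the number tested in brackets. The mitosis genes have 2 falls and no rises, the DNA replication list has 22 falls of 47, and all genes have 18.6% falls and 13.4% rises.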

How the data were processed

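Amplified cDNA (SMARTer kit, 1 ng of RNA, 14 cycles) of 4 PBS and 3 DT samples was read from 1 end over 50 bases, per the labels' protocols. STAR 2.5.3a, Partek and mm10 are named per the submitters' processing notes; settings, annotation and strand use were not stated there. The table that the authors deposited is called FPKM, yet its values behave as RPM plus 0.0001, since 1029 to 1206 genes of a library share its commonest value, taken as 1 read. Among values of at most 20 such reads, 59.7% to 61.9% came within 0.02 of a whole number, too few to recover reads, so the log-scale test was used. Names of 26 rows had become dates.

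The 14100 genes averaging 1 RPM or more entered a two-sided trend fit on log2(RPM + 1) by limma 3.58.1 (R 4.3.3), with adjusted p (Benjamini-Hochberg) under 0.05 as the threshold. The added 1 understates changes of low genes. All 32 mitosis genes passed the filter. Samples were grouped by title and were not paired by replicate number. Alternatives changed the scaling, pseudocount, filter, trend, weights, test, replicate block and libraries. The genes and lists were chosen with earlier results of these data known. By rule, genes past the threshold and the 4 with the highest mean RPM (Top2a, Mki67, Nusap1 and Cdca8) got values in every library, and lists up to 3 genes past the threshold; the values of other mitosis genes, the other kinetochore genes and the promoters printed were chosen after values were seen.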

Additional observations from a re-analysis of the deposited data

Results flagged for a closer look

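In 3 of the 32 mitosis genes 1 PBS library lay far from the other PBS libraries, with a gap to its neighbour that exceeded Dixon's 95% limit for 4 samples when divided by the whole range. In each it was PBS replicate 1, the highest: Kif11 at 183.1 RPM, Kif2c at 66.19 RPM and Kif23 at 118.5 RPM. Chance flags about 1 in 20 groups of 4, and 5.82% of all genes tested were flagged. The 32 genes are correlated and the flags come from the same library, so they are not separate events. The erythroid sum of that library was 1184 RPM, beside 7331 to 11980 RPM in the other PBS libraries, and its neutrophil precursor sum was 1693 RPM, beside 490 to 828 RPM. Sums of other cell type lists were also highest there among PBS, as given above. The part of these cell types in the result was not tested.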

How the results depend on the processing

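With 4 and 3 samples and 1 library apart, small changes of single mitosis genes were below what these data resolve. The number of mitosis genes lower in DT, 2 as reported, was 1 under quantile normalization, median-ratio scaling, no filter, no trend, or median-ratio scaling without PBS replicate 1, and 4 with a minimum mean of 5 RPM or with array weights. The number higher, 0 as reported, was 2 with array weights and 11 with median-ratio scaling without PBS replicate 1. With single libraries left out the numbers ran from 1 to 5 lower and from 0 to 3 higher. Without PBS replicate 3 there were 5 lower. Among all genes the 2622 lower became 1321 with median-ratio scaling, 1701 with no filter and 1555 with the replicate block, and 1208 to 3628 with single libraries left out (1208 without DT replicate 3, 1500 without DT replicate 1, 1609 without DT replicate 2). The 1894 higher ran from 1383 to 2108 with single libraries left out. With array weights more of all genes passed too, 3823 lower and 2191 higher of 14100. A minimum mean of 5 RPM gave 2530 lower and 1530 higher, of fewer genes tested. Under median-ratio scaling 2364 were higher. Both directions together moved to 2722 higher and 1957 lower with median-ratio scaling without PBS replicate 1, and the replicate block gave 1655 higher.

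The reported fit did not pair samples by replicate number. The correlations of deviations for numbers 1 to 3 were 0.042, 0.049 and 0.010. DT replicates 1 and 2 each correlated most with their own number, whereas DT replicate 3 correlated more with PBS replicate 4 (0.048). All were near 0 and came from few libraries, so they cannot tell whether the numbers pair samples. With the replicate block, on 3 pairs, 3 mitosis genes were lower and 0 higher.

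The following estimates changed sign. Under median-ratio scaling Cdk1 was at 0.056, Ccnb1 0.18, Ttk 0.016, Cdca8 0.083, Kif4 0.20, Tpx2 0.20 and Hmmr 0.018. Quantile normalization gave Ccnb1 0.031, Kif4 0.067 and Tpx2 0.052, array weights gave 0.044, 0.054 and 0.11, and the replicate block gave Bub1b -0.029 and Aurkb -0.051. Median-ratio scaling without PBS replicate 1 gave Cdk1 0.32, Ccnb1 0.33, Ccnb2 0.081, Foxm1 0.13, Top2a 0.24, Cenpe 0.15, Cenpf 0.088, Ttk 0.33, Mad2l1 0.075, Birc5 0.040, Cdca8 0.28, Kif11 0.22, Kif4 0.31, Tpx2 0.46 and Hmmr 0.16. With single libraries left out the ranges were -0.36 to 0.063 for Cdk1, -0.15 to 0.072 for Ccnb1, -0.027 to 0.29 for Plk1, -0.23 to 0.38 for Ndc80, -0.13 to 0.23 for Nuf2, -0.21 to 0.27 for Bub1, -0.17 to 0.23 for Bub1b, -0.38 to 0.074 for Ttk, -0.13 to 0.21 for Aurkb, -0.31 to 0.015 for Cdca8, -0.15 to 0.055 for Kif4, -0.19 to 0.20 for Tpx2, -0.073 to 0.61 for Nusap1, -0.013 to 0.32 for Prc1 and -0.092 to 0.39 for Ube2c. The cause was not tested.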
